A study of Drosophila melanogaster with 36 samples.

Results

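The comparison described here is that of wild type pulldowns 7 days after injury with wild type pulldowns before injury, 3 libraries against 3, which are 6 of the 36 libraries of the series. The members were chosen by label alone, and every gene in the count tables entered. The flies were adult Drosophila melanogaster, aged 5 to 10 days in the study's ablation protocol, and the tissue was the head. Wild type means w; orco-Gal4/+; 5xUAS-GFP::RpL10Ab/+;, so that a GFP-tagged large-subunit ribosomal protein is made under the promoter of the olfactory co-receptor gene Orco. At 7 dpa (days post axotomy) both antennae and both maxillary palps had been removed 7 days before the heads were frozen, and the uninjured group had kept them. The pulldown is RNA from anti-GFP beads and the input is RNA of the same head lysate. Libraries of 3 further kinds serve as a reference where stated, each 3 against 3: the wild type input, the pulldown of dnmnatOE, which in addition carries the NAD synthase transgene 5xUAS-dnmnat (orco-Gal4 over 5xUAS-dnmnat, with the same 5xUAS-GFP::RpL10Ab/+), and the pulldown of background, which carries w; orco-Gal4/+; ; and hence no tagged ribosome. All 3 genotypes carry orco-Gal4. Each genotype and condition was represented by 300 animals, and the 3 libraries of each group are technical replicates by their labels, so p-values measure only the spread between these libraries. Injured heads were also taken later than uninjured ones, and injury and time cannot be told apart in this design.

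The cell bodies of olfactory receptor neurons lie in the antennae and maxillary palps, and only their axons and synapses lie in the brain. Removing these organs takes away the cell bodies, and the severed wild type axons then run the programme called Wallerian degeneration, in which the NAD-synthesizing enzyme dNmnat is lost and axons fragment and are engulfed by glia through the receptor Draper. Translating ribosome affinity purification (TRAP) aims to recover the mRNAs carried by the tagged ribosomes of the driver's cells. After ablation few such cells should be left in a wild type head, and the comparison asks which RNAs on the beads differed from those recovered while the organs were still attached.

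The 6 pulldowns held 708879, 1193734 and 994699 gene counts at 7 dpa, against 936868, 738509 and 644358 uninjured, where the wild type inputs held 19009688 to 22095419 at 7 dpa and 14692148 to 19839757 uninjured. Background pulldowns, with no tag, held 717185 to 974540 gene counts at 7 dpa and 745706 to 1280180 uninjured. A count of 3 in 1 library, used below as the floor, was worth 3.04 to 4.44 CPM (counts per unit of normalized library size, the usual scale of edgeR) at 7 dpa and 3.92 to 5.32 CPM uninjured, for counting error only. rRNA genes took 19.6% to 31.9% of the gene counts at 7 dpa and 33.1% to 39.4% uninjured, and 55.8% to 60.0% against 59.1% to 60.3% of the recorded read pairs were ambiguous between genes. Between 7768 and 8092 genes had a count at 7 dpa, against 6999 to 7192 uninjured. Log2 CPM of libraries of a group correlated across genes at a Pearson r of 0.815 to 0.833 at 7 dpa and 0.718 to 0.726 uninjured, which is a description, since genes are not replicates. A single 7 dpa library stood apart in rRNA. 18SrRNA-Psi:CR41602, a pseudogene of 18S rRNA chosen after its values were seen, had 1561, 122598 and 1311 CPM at 7 dpa, against 118446, 180581 and 111638 CPM uninjured. Replicate 2 at 7 dpa was thus at the uninjured level and the other 7 dpa libraries were not, and the gene was not called (edgeR, adjusted p = 0.73).

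The labelled cell type, olfactory sensory neurons, was checked against its markers. Orco, the co-receptor on which the driver is built, had 0, 0 and 4.14 CPM at 7 dpa, against 45.8, 11.6 and 1.77 CPM uninjured. The groups overlapped, with all 7 dpa libraries and 1 uninjured library at or near the floor (log2 fold change −3.67, edgeR adjusted p = 0.143). Uninjured background pulldowns, with no tag, had 2.52 ± 3.51 CPM (SD, n = 3), and the input had 1.96 ± 1.73 CPM at 7 dpa and 27.7 ± 3.32 CPM uninjured. Only 2 of the 60 odorant receptor genes had enough counts to be tested in the pulldown, and the summed level of all 60 was 10.4 to 24.3 CPM at 7 dpa and 55.0 to 69.3 CPM uninjured. Receptor RNAs of olfactory neurons were therefore scarce in these pulldowns before injury, and their summed level was lower after it, with no overlap of the groups. The summed levels of markers of other head tissues were 16622 to 16812 CPM for photoreceptors at 7 dpa and 19842 to 21154 CPM uninjured, and 46791 to 48923 CPM for fat body at 7 dpa and 33351 to 34987 CPM uninjured. In bulk heads, fewer cells of a type and less RNA per cell cannot be told apart, here and in every result that follows.

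RpL10Ab, the gene of the tagged protein, had 635, 539 and 612 CPM at 7 dpa, against 491, 453 and 497 CPM uninjured. Its transgene and its own locus cannot be separated in these counts, and the difference was not called (log2 fold change 0.31, SE 0.14, edgeR adjusted p = 0.202), although the ranges did not overlap. Nmnat, which encodes the NAD-synthesizing enzyme dNmnat that keeps axons alive, had 0, 8.11 and 4.14 CPM at 7 dpa, against 41.9, 36.5 and 7.10 CPM uninjured. Its groups overlapped (log2 fold change −2.71, edgeR adjusted p = 0.0843), and the gene was called only with DESeq2 or without uninjured replicate 3 (adjusted p = 0.037).

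Of 7213 genes with enough counts to be tested, 283 rose and 166 fell at 7 dpa. Here rose and fell mean a quasi-likelihood test in edgeR with a p, adjusted by Benjamini and Hochberg over all genes, not above 0.05, together with a log2 fold change above 0.6 or below −0.6, and genes that met both are referred to as called. The called genes were 6.22% of those tested, 3.92% higher and 2.30% lower, and 1477 genes had an unadjusted p under 0.05. Separately, 18.5% of all genes tested had CPM ranges of the 2 groups that did not overlap. That was so for 270 of the 283 genes that rose and for 151 of the 166 that fell. The genes that rose were shorter, with a median exonic length of 2283 bases, than those that fell, with 4705 bases, where all genes tested had a median of 2540 bases. Protein-coding genes made up 279 of those that rose and 159 of those that fell, and 6996 of the 7213 tested. In 20 genes that rose, all 3 uninjured libraries had no count, and in 11 genes that fell, all 3 libraries of 7 dpa had none. Among all genes tested, 135 had no count in the uninjured libraries and 47 had none in those of 7 dpa. Without 7 dpa replicate 2 the counts were 229 higher and 123 lower, and without 7 dpa replicate 3 only 106 fell. With the 6 libraries fitted alone, which also changed the filter and the normalization and left 5264 genes to test, 111 genes were called higher and 54 lower, of which 110 and 52 were among those above. Of 124 named genes tested in that fit, which include genes not called above, 41 lost their call, 17 of them ribosomal protein genes. The other 24 were Cyp4d8, Cyp309a2, Spn28Dc, Rpn13, Cyp6a13, Atg4a, Socs36E, Cyp28d1, loco, Cyp9h1, Hml, drpr, ATPsynB, scaRNA:PsiU1-6, HERC2, Gs2, hep, Ca-alpha1T, Sh, syd, Rbp, Obsc, wkd and CG4502 (adjusted p = 0.0505 to 0.189).

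**Figure D1:**
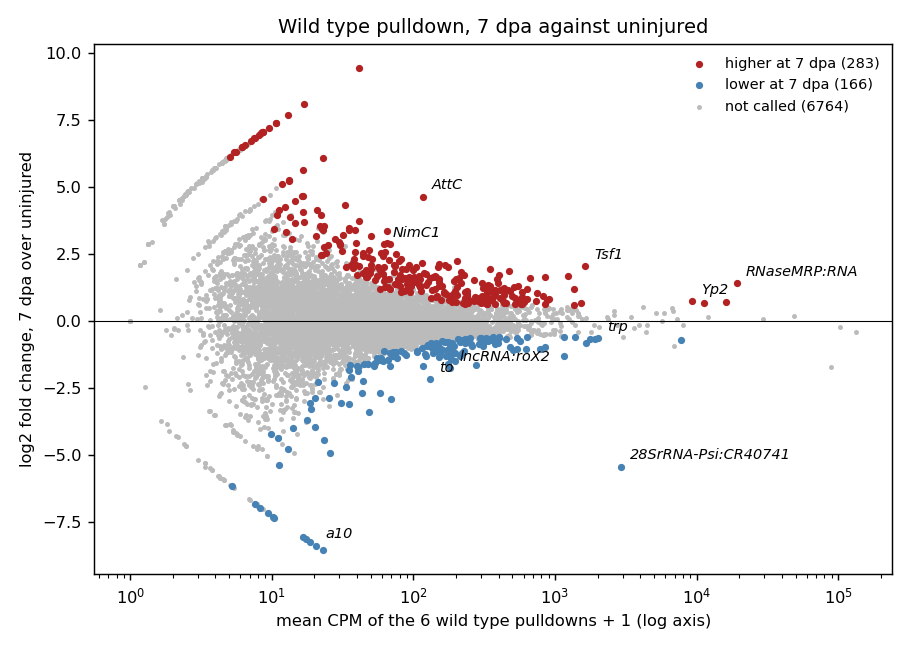
Mean level of each gene in the 6 wild type pulldowns (CPM + 1, log axis) against its log2 fold change, 7 dpa over uninjured. Red points are the 283 genes called higher, blue points the 166 called lower and grey points the genes not called. AttC lies at 4.64 and 28SrRNA-Psi:CR40741 at −5.45, and the steep points at the left are genes with no count in 1 of the groups.

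Where a gene averaged at least 50 counts and its groups were apart, AttC showed the largest rise. AttC encodes Attacin-C, an antibacterial peptide of the Imd pathway. It had 221, 264 and 182 CPM at 7 dpa, against 9.16, 6.63 and 10.6 CPM uninjured. Every 7 dpa library was above every uninjured library, and the log2 fold change was 4.64 (SE 0.34, edgeR adjusted p = 5.84e-15). Part of its exons overlap those of CG4744, and read pairs in the shared bases cannot be assigned. CG4757 had 87.3, 106 and 159 CPM at 7 dpa, against 7.85, 13.3 and 14.2 CPM uninjured, again with no overlap (log2 fold change 3.34, adjusted p = 6.81e-07). Myo31DF, an unconventional myosin known for its part in left-right asymmetry, had 130.2, 129.7 and 79.8 CPM at 7 dpa, against 14.4, 16.6 and 14.2 CPM uninjured (log2 fold change 2.90, adjusted p = 5.96e-06). Its exons overlap asRNA:CR44224, and since no strand setting of the counting is given in the sources used here, the pair cannot be told apart.

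Further genes among the 12 largest rises had these levels. Mtp, the microsomal triglyceride transfer protein of lipoprotein assembly, had 127 ± 11.2 CPM at 7 dpa, against 22.3 ± 5.55 CPM uninjured (SD, n = 3 each, log2 fold change 2.49, edgeR adjusted p = 2.37e-05). Qsox1, a sulfhydryl oxidase, had 380.3, 294 and 326 CPM at 7 dpa, against 32.7, 46.4 and 137 CPM uninjured (log2 fold change 2.24). Amy-d, a digestive amylase, had 166, 141 and 95.3 CPM at 7 dpa, against 9.16, 16.6 and 56.8 CPM uninjured (log2 fold change 2.32). In each of these genes the lowest 7 dpa library was above the highest uninjured one, which the rule that chose them required. Amy-d has a near-identical neighbour, Amy-p, so read pairs may be split between them. Amy-p, named after its values were seen, had 97.7, 64.9 and 79.8 CPM at 7 dpa and no count in any uninjured library, so that each 7 dpa library was above the floor. FBXO11, an F-box protein, had 155, 114 and 59.1 CPM at 7 dpa, against 19.6, 26.5 and 21.3 CPM uninjured, and rose with 2.27 (adjusted p = 1.04e-04).

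**Figure D2:**
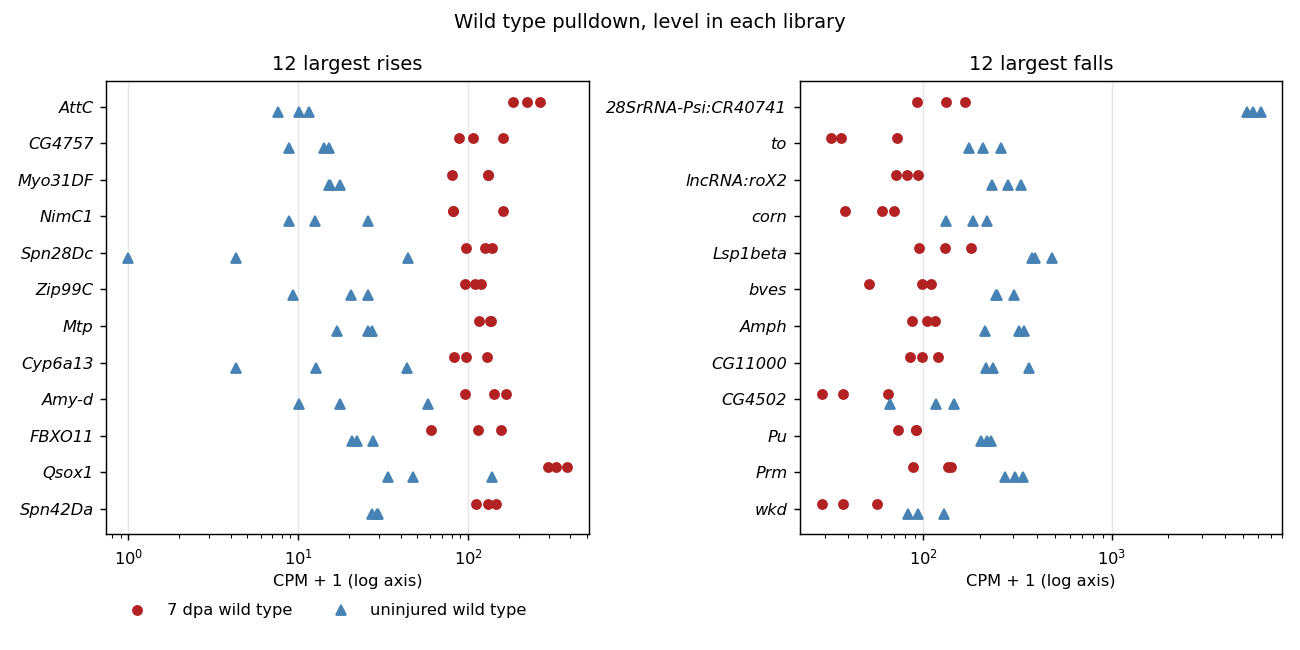
Level of each gene in each wild type pulldown (CPM + 1, log axis) for the 12 largest rises and the 12 largest falls among called genes that averaged at least 50 counts and whose groups were apart. Red circles are 7 dpa and blue triangles uninjured libraries. The 3 libraries of AttC at 7 dpa sit far to the right of the uninjured ones, and those of 28SrRNA-Psi:CR40741 far to the left.

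Immune effectors other than AttC were mostly too low to test. Of 20 antimicrobial peptide genes, 8 were tested and 2 rose, AttC and DptA, where 3.92% of all genes tested rose. Their summed level was 302 to 364 CPM at 7 dpa, against 42.6 to 69.3 CPM uninjured. DptA, which encodes the antibacterial peptide Diptericin, had 5.92, 4.05 and 20.7 CPM at 7 dpa and no count uninjured. It was at least 2.16-fold higher, and the call was lost without 7 dpa replicate 3 (adjusted p = 0.0876). The fitted median over the 8 genes was 3.62, or 0.97 with genes at 0 in a group set to their bound, against 0.02 for all genes tested. Of the 3 Bomanins (short Toll-induced peptides) and 8 peptidoglycan recognition proteins tested, none was called, with 0 and 3 genes at an unadjusted p under 0.05.

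Hemocytes are the phagocytes of the fly's blood, and Hml (Hemolectin) and NimC1 (a phagocytosis receptor) mark them. Hml had 124, 121 and 141 CPM at 7 dpa, against 44.5, 53.1 and 65.6 CPM uninjured (log2 fold change 1.25, SE 0.31, edgeR adjusted p = 0.00713). NimC1 had 79.9, 159 and 80.8 CPM at 7 dpa, against 7.85, 11.6 and 24.8 CPM uninjured (log2 fold change 2.87, adjusted p = 0.0115). In both genes the groups were apart, but NimC1 was highest in 7 dpa replicate 2, and its call was lost without 7 dpa replicate 2 (adjusted p = 0.116). The call of Hml was lost with the 6 libraries fitted alone (adjusted p = 0.0917). These were 2 of 7 hemocyte markers tested, where 3.92% of all genes rose. The others were not called, with log2 fold changes between −0.27 for crq and 1.02 for eater, and the median of the 7 was 0.93. The summed level of the markers was 503 to 582 CPM at 7 dpa, against 285 to 353 CPM uninjured.

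Serpins, which inhibit the proteases of the clotting and melanization cascades, are a family chosen after its values were seen. Of 11 serpin genes tested 5 rose and none fell, and the median of their log2 fold changes was 1.16, where 3.92% of all genes tested rose. Spn42Da, which overlaps asRNA:CR44169, had 130.2, 144 and 111 CPM at 7 dpa, against 26.2, 28.2 and 28.4 CPM uninjured (log2 fold change 2.22, edgeR adjusted p = 8.98e-04). Spn43Ab had 552, 663 and 542 CPM at 7 dpa, against 204, 259 and 129.5 CPM uninjured (log2 fold change 1.57). The groups of both were apart. Spn28Dc, a regulator of melanization, had 96.2, 138 and 124 CPM at 7 dpa, against a spread of 43.2, 3.32 and 0 CPM uninjured. Its call, at a log2 fold change of 2.85 and an adjusted p of 0.00865, was lost without uninjured replicate 2 (adjusted p = 0.0536). In the same way, all 6 imaginal disc growth factors (Idgf, chitinase-like secreted proteins) rose, with a median of 1.61. The one with the highest level, Idgf6, had 2033, 1864 and 1781 CPM at 7 dpa, against 954, 806 and 720.3 CPM uninjured (log2 fold change 1.19, adjusted p = 7.68e-09). All 3 thioester-containing proteins tested, which act as complement-like opsonins, rose with a median of 1.14, for example Tep4 with 494, 516 and 538 CPM at 7 dpa, against 293, 189 and 218 CPM uninjured. In background pulldowns, without a tag, 3 of the serpins, 1 of the Idgf genes and 2 of the Tep genes were called higher too, and the medians were 1.03, 1.01 and 0.62. The clotting factor gene fon (fondue) had 1162, 1251 and 1439 CPM at 7 dpa, against 263, 482 and 497 CPM uninjured (log2 fold change 1.64). The genes of these families, and fon, were named after their values were seen, and their counts are descriptions.

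The fat body, the fly's liver-like tissue, secretes transferrin, lipoproteins, yolk and collagen IV. Of 13 fat body genes tested 6 rose and 2 fell, against 3.92% and 2.30% of all genes. Tsf1, which encodes the iron carrier transferrin and lies at chrX:18387084-18390344 of the Release 6 assembly, had 2728, 2466 and 2703 CPM at 7 dpa, against 764, 569 and 593 CPM uninjured (log2 fold change 2.03, SE 0.11, edgeR adjusted p = 1.31e-19). Replicates lay within a narrow range and the groups were far apart. Col4a1, a collagen IV chain, had 844, 795 and 743 CPM at 7 dpa, against 366, 405 and 364 CPM uninjured (log2 fold change 1.07). The partner chain vkg had 290.1, 346 and 321 CPM at 7 dpa, against 156, 162 and 158 CPM uninjured (log2 fold change 1.01). Apoltp, the lipid transfer particle, rose less (0.77, adjusted p = 3.35e-05), and the yolk proteins Yp2 and Yp3 are described below. The 2 that fell were to (takeout), a clock-regulated feeding gene of the juvenile hormone binding protein family, and FASN1, the fatty acid synthase. The gene to had 35.5, 31.4 and 71.5 CPM at 7 dpa, against 174, 206 and 257 CPM uninjured (log2 fold change −2.18, adjusted p = 5.00e-07). FASN1 had 1519.9, 1428 and 1489 CPM at 7 dpa, against 2134, 2535 and 2384 CPM uninjured (log2 fold change −0.67). The list thus held genes that moved both ways.

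Cytochrome P450 enzymes oxidize toxins, hormones and cuticle lipids. Of 59 P450 genes tested 9 rose and 1 fell, against 3.92% and 2.30% of all genes, and 44 of the 59 values were above 0, with 0.71 as their median. Cyp9b2 had 296, 279.8 and 311 CPM at 7 dpa, against 141, 97.8 and 60.3 CPM uninjured (log2 fold change 1.55, edgeR adjusted p = 1.07e-04). Cyp6a13 had 96.2, 81.1 and 127 CPM at 7 dpa, against 11.8, 3.32 and 42.6 CPM uninjured (2.42, adjusted p = 0.00445). Their groups did not overlap, but the call of Cyp6a13 was lost with the 6 libraries fitted alone (adjusted p = 0.0527). Cyp6g1, known from DDT resistance and overlapping Cyp6g2, rose with 1.17, and Cyp28d1, which overlaps CG7742, with 1.44. Cyp4g1, which makes cuticular hydrocarbons in oenocytes, had 598, 608 and 443 CPM at 7 dpa, against 89.0, 221 and 122 CPM uninjured, and its call was lost without uninjured replicates 1 or 3 (adjusted p = 0.0565 to 0.0719). The calls of the other 4 that rose, Cyp4d8, Cyp309a2, Cyp4e2 and Cyp9h1, were likewise each lost without 1 or more libraries. These were for Cyp4d8 without 7 dpa replicates 2 or 3 or uninjured replicates 1 or 3 (adjusted p = 0.104 to 0.122), for Cyp309a2 without 7 dpa replicates 1, 2 or 3 or uninjured replicates 2 or 3 (adjusted p = 0.0549 to 0.128), for Cyp4e2 without 7 dpa replicate 1 or uninjured replicate 1 (adjusted p = 0.0552 to 0.11) and for Cyp9h1 without 7 dpa replicates 1, 2 or 3 or uninjured replicates 1 or 3 (adjusted p = 0.0515 to 0.132). The P450 that fell was Cyp313a1, with 8.88, 6.08 and 18.7 CPM at 7 dpa, against 95.5, 68.0 and 58.5 CPM uninjured (−2.70, adjusted p = 4.18e-04). Of 19 glutathione S-transferases tested none rose and GstE4 fell, with no count at 7 dpa, against 56.3, 41.5 and 33.7 CPM uninjured, at least 12.4-fold lower.

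The JAK-STAT pathway answers to wounding through the receptor Domeless and induces the Turandot stress peptides and the feedback inhibitor Socs36E. Of 8 genes of this list tested 3 rose and none fell, where 3.92% of all genes rose. Socs36E had 93.2, 98.3 and 82.9 CPM at 7 dpa, against 20.9, 29.8 and 44.4 CPM uninjured (log2 fold change 1.54, edgeR adjusted p = 0.00478), and its call was lost with the 6 libraries fitted alone (adjusted p = 0.104). The negative regulator et (eye transformer), whose exons overlap Zw, had 155, 176 and 164 CPM at 7 dpa, against 13.1, 44.8 and 67.4 CPM uninjured (2.01, adjusted p = 4.74e-04). TotA had 11.8, 24.3 and 26.9 CPM at 7 dpa, against 2.62, 3.32 and 0 CPM uninjured, and its call was lost without 7 dpa replicates 2 or 3 or uninjured replicates 1 or 3 (adjusted p = 0.0582 to 0.0996). The core components were not called, with values of 0.44 for the receptor dome, 0.06 for the kinase hop and −0.04 for the transcription factor Stat92E.

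Engulfment and glial genes were set beside all genes tested, of which 3.92% rose and 2.30% fell. Of 13 engulfment genes tested only drpr (Draper), the glial receptor for axonal debris, rose, where 3.92% of all genes did. It had 201, 204 and 151 CPM at 7 dpa, against 77.2, 104 and 69.2 CPM uninjured (log2 fold change 1.15, SE 0.29, edgeR adjusted p = 0.00813), and its exons overlap Oseg4. The call was lost with the 6 libraries fitted alone (adjusted p = 0.066). The median of the list was 0.38. In background pulldowns, without a tag, none of the 13 was called and the median was 0.35. The difference, wild type minus background, was called for none of the 13 and had a median of 0.10. In the wild type input 5 of the 13 rose, where 17.8% of all genes did. Of 14 glial markers, loco, a G protein regulator that overlaps asRNA:CR43474, rose with 1.39, and the glutamine synthetase gene Gs2 fell with −0.61. The first call was lost without 7 dpa replicate 3 or uninjured replicate 3 (adjusted p = 0.0683 to 0.104), and the other without 7 dpa replicates 2 or 3 or uninjured replicate 1 (adjusted p = 0.0556 to 0.127). The pan-glial transcription factor gene repo had a log2 fold change of −0.21 and was not called.

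Ribosomal protein genes were higher at 7 dpa almost throughout. Of 81 cytosolic ribosomal protein genes tested 23 rose and none fell, against 3.92% and 2.30% of all genes, and 79 of the 81 values were above 0, around a median of 0.51. Over the 6 fits that left out 1 library and the fit of protein-coding genes alone, 19 to 28 of them were called and the median stayed between 0.50 and 0.54. With the 6 libraries fitted alone only 6 of the 81 were called, with a median of 0.49. The summed level was 44110 to 46631 CPM at 7 dpa, against 30833 to 34279 CPM uninjured, with no overlap. RpS16 had 552, 591 and 595 CPM at 7 dpa, against 332, 318 and 229 CPM uninjured (log2 fold change 0.98, SE 0.16, edgeR adjusted p = 1.85e-05). RpL5 had 769.6, 803 and 853 CPM at 7 dpa, against 489, 473 and 429 CPM uninjured (0.80, adjusted p = 1.41e-05). RpS26 had 747, 724 and 771 CPM at 7 dpa, against 326, 550.5 and 379.6 CPM uninjured (0.84, adjusted p = 1.04e-04). In these genes too, no uninjured library reached the lowest 7 dpa library. In the wild type input none of 83 ribosomal protein genes was called, with a median of 0.14, and the difference between pulldown and input was called higher for RpL5 (0.83, SE 0.12, adjusted p = 0.00115) and RpS16 (0.88, adjusted p = 0.00818), among others. In all, 19 of 83 were called higher in that difference and none lower, where 0.862% and 1.22% of all genes were. The input RNA was poly-A selected and the pulldown RNA was not, and the part of this in the difference cannot be told apart from that of the beads. The same list in background pulldowns, without a tag, had a median of 0.41 with 12 of 81 called higher, where 1.64% of all genes were. Wild type and background were not called different for any of the 81 genes, with 10 of them at an unadjusted p under 0.05, a difference with a median of 0.11.

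Other lists of the translation machinery and of energy metabolism held few called genes, where 6.22% of all genes tested were called. None of 33 initiation factors and none of 7 elongation factors was called, with 5 and 4 of them at an unadjusted p under 0.05. eEF1alpha1, the main elongation factor, had 7585, 7977 and 8068 CPM at 7 dpa, against 5659, 5601 and 5554 CPM uninjured, a difference past the p threshold but under the fold threshold (log2 fold change 0.49, edgeR adjusted p = 6.00e-06). None of 27 mitochondrial ribosomal protein genes and 12 genes of the mitochondrial genome was called, and of 57 nuclear genes of the respiratory chain 1 rose, ATPsynB (1.11), whose call was lost without 7 dpa replicate 2 or uninjured replicates 2 or 3 (adjusted p = 0.0687 to 0.241). Of 30 proteasome subunit genes 1 rose, Rpn13 (2.59), whose call was lost without 7 dpa replicate 3 or uninjured replicate 1 (adjusted p = 0.0537 to 0.0609). Of 18 autophagy genes 1 rose, Atg4a (1.55, adjusted p = 0.00258, or 0.07 with the 6 libraries fitted alone), a protease that processes Atg8 and whose exons overlap CG4629. None of 12 heat shock protein genes, 10 clock genes and 15 genes of TOR and insulin signalling was called.

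Among genes of the removed organs a10, Obp19a and Obp19d fell. The antennal protein gene a10 (antennal protein 10), expressed in support cells of olfactory sensilla, had no count in any of the 3 libraries at 7 dpa, against 27.5, 61.3 and 28.4 CPM uninjured. It was at least 11.1-fold lower (edgeR adjusted p = 4.77e-04). Obp19a, an odorant-binding protein, had no count at 7 dpa either, against 6.54, 4.97 and 28.4 CPM uninjured, at least 3.77-fold lower, and its call was lost without 7 dpa replicates 1, 2 or 3 or uninjured replicate 3 (adjusted p = 0.117 to 0.138). Obp19d had 91.8, 95.3 and 120.2 CPM at 7 dpa, against 259, 257 and 232 CPM uninjured (log2 fold change −1.28, adjusted p = 6.84e-05). Odorant-binding proteins are also made outside the antenna, and of the 17 tested 2 fell and none rose, against 2.30% and 3.92% of all genes, with a median of −0.73. Of the 4 antennal support cell genes tested only a10 was called, and the summed level of the list was 1.48 to 3.11 CPM at 7 dpa, against 44.4 to 146 CPM uninjured. Neither odorant receptor tested was called, nor was any of 5 genes of Johnston's organ, the hearing organ of the second antennal segment. The summed level of the Johnston's organ list was 43.5 to 77.0 CPM at 7 dpa, against 128 to 159 CPM uninjured, with no overlap.

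Of 21 genes of synaptic release and cholinergic transmission 2 fell and none rose, where 2.30% of all genes fell, 18 of the 21 values were below 0, and the median log2 fold change was −0.45. In background pulldowns 1 of the 21 fell and none rose, where 0.943% of all genes fell, with a median of −0.17. The difference, wild type minus background, was called for none of the 21 and had a median of −0.11. The 2 that fell in wild type were scaffolds of the presynaptic active zone. brp (Bruchpilot) had 343, 392 and 529 CPM at 7 dpa, against 657, 662 and 811 CPM uninjured (log2 fold change −0.75, SE 0.15, edgeR adjusted p = 4.23e-04). Rbp (RIM-binding protein), which overlaps h-cup, had 155, 103 and 142 CPM at 7 dpa, against 258, 204 and 296 CPM uninjured (−0.92, adjusted p = 0.00364), and its call was lost with the 6 libraries fitted alone (adjusted p = 0.0668). Of 18 voltage-gated channel genes 3 fell and none rose, where 2.30% of all genes fell, with a median of −0.45. In background pulldowns, without a tag, 3 of the 18 fell and none rose, where 0.943% of all genes fell, with a median of −0.48. The difference, wild type minus background, was called for none of the 18 and had a median of 0.03. In the wild type input 10 of the 18 fell, where 10.7% of all genes did. NaCP60E, a sodium channel gene that overlaps pain, had 79.9, 137 and 73.6 CPM at 7 dpa, against 326, 196 and 204 CPM uninjured (−1.32, adjusted p = 8.54e-05). The potassium channel gene Sh (Shaker) and the T-type calcium channel gene Ca-alpha1T fell with −0.85 and −0.79, and their calls were lost, for Sh without 7 dpa replicates 1 or 3 or uninjured replicate 2 (adjusted p = 0.0681 to 0.129) and for Ca-alpha1T without 7 dpa replicate 2 or uninjured replicate 1 (adjusted p = 0.0934 to 0.0947). The axonal transport adaptor syd fell with −0.92 and the kinase gene hep (hemipterous), which activates JNK, with −0.67, but both calls were lost, for syd without 7 dpa replicates 1, 2 or 3 or uninjured replicate 2 (adjusted p = 0.0527 to 0.104) and for hep without 7 dpa replicates 2 or 3 or uninjured replicates 1, 2 or 3 (adjusted p = 0.0529 to 0.295). Of 10 nicotinic acetylcholine receptor genes 1 rose, nAChRbeta3 (2.15), where 3.92% of all genes rose. nAChRbeta3 overlaps the wound-induced transcription factor gene Ets21C, so its read pairs may be of either. Of 13 neuropeptide genes 1 fell, where 2.30% of all genes did. It was Nplp3, with 0, 28.4 and 14.5 CPM at 7 dpa, against 96.8, 116 and 85.2 CPM uninjured (−2.70, adjusted p = 1.82e-05).

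Photoreceptors and muscle are cells in which orco-Gal4 is not known to act. Of all genes tested, 3.92% rose and 2.30% fell. Of 21 photoreceptor genes 2 fell and none rose, both of them phototransduction channels. Only 4 of the 21 values were above 0, around a median of −0.24. trp had 1678, 1528 and 1495 CPM at 7 dpa, against 2424, 2560 and 2381 CPM uninjured (log2 fold change −0.65, SE 0.09, edgeR adjusted p = 2.16e-06), and its call was lost without 7 dpa replicate 3 (adjusted p = 1.31e-04) because the fold change was then under the threshold. trpl had 1134, 1309.6 and 1165 CPM at 7 dpa, against 2467, 1842 and 2045 CPM uninjured (−0.82, adjusted p = 1.15e-07). The main rhodopsin gene ninaE was not called, at −0.17. Of 16 muscle genes only Obsc (obscurin) fell, with −1.04, and its call was lost without 7 dpa replicate 1 or uninjured replicate 1 (adjusted p = 0.0709 to 0.124). Only 1 of the 16 values was above 0, around a median of −0.36. The summed muscle level was 3728 to 4018 CPM at 7 dpa, against 4623 to 5352 CPM uninjured. Among the 12 largest falls, Prm (paramyosin) had 87.3, 139 and 135 CPM at 7 dpa, against 305, 270.3 and 339 CPM uninjured (−1.33, adjusted p = 1.64e-05), and Amph (amphiphysin, which shapes muscle T-tubules in flies and overlaps lncRNA:CR45279) had 85.8, 103 and 115 CPM at 7 dpa, against 340.1, 322 and 211 CPM uninjured (−1.52, adjusted p = 2.47e-06). bves, a Popeye domain gene, had 50.3, 108 and 97.4 CPM at 7 dpa, against 245, 242 and 303 CPM uninjured (−1.61, adjusted p = 7.86e-05). The groups of Prm, Amph and bves did not overlap, which the rule that chose these genes required.

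The remaining genes among the 12 largest falls were of several kinds. Pu (Punch) encodes GTP cyclohydrolase I, which starts the synthesis of eye pigments and of the cofactor for dopamine, and had 72.5, 90.2 and 90.1 CPM at 7 dpa, against 217, 229 and 200.5 CPM uninjured (log2 fold change −1.35, edgeR adjusted p = 1.26e-05). Lsp1beta, a larval storage protein, had 178, 94.3 and 129.5 CPM at 7 dpa, against 392, 482 and 376 CPM uninjured (−1.65, adjusted p = 8.75e-07). corn (cornetto), which overlaps melt, had 59.2, 68.9 and 37.3 CPM at 7 dpa, against 183, 131 and 218 CPM uninjured (−1.69, adjusted p = 1.36e-04). CG11000 fell with −1.44 (adjusted p = 2.98e-05). wkd and CG4502 fell with −1.32 and −1.37, and their calls were lost, for wkd without 7 dpa replicates 1 or 2 or uninjured replicate 1 (adjusted p = 0.108 to 0.138) and for CG4502 without 7 dpa replicates 2 or 3 or uninjured replicates 1 or 2 (adjusted p = 0.0593 to 0.165).

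**Figure D3:**
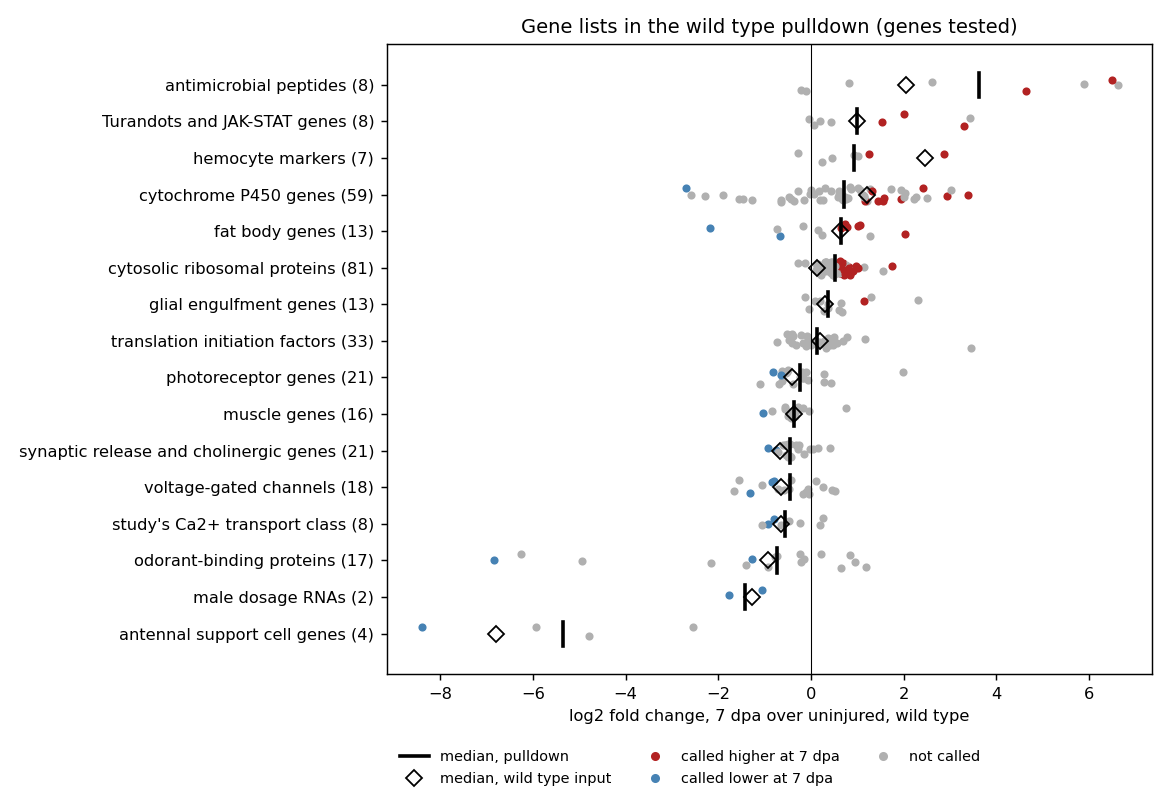
Log2 fold change, 7 dpa over uninjured, of each gene tested in 16 lists in the wild type pulldown. Red points were called higher, blue points lower and grey points not called, black bars are list medians in the pulldown and open diamonds those in the wild type input. The bar of the cytosolic ribosomal proteins stands at 0.51 and their diamond at 0.14, while hemocyte markers have the bar at 0.93 and the diamond at 2.47.

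The study singled out a protein ubiquitination class and a Ca2+ transport class of genes from these same samples, so their values are not independent evidence. Of the 16 ubiquitination genes 1 rose and none fell in wild type, against 3.92% and 2.30% of all genes, with a median of 0.15. That gene, HERC2, which encodes a large E3 ligase, had 416, 589.9 and 602 CPM at 7 dpa, against 348, 323 and 303 CPM uninjured (log2 fold change 0.72, SE 0.14, edgeR adjusted p = 4.44e-04), and its call was lost with the 6 libraries fitted alone (adjusted p = 0.0505). Of the others, hiw (Highwire), the E3 ligase that turns over dNmnat, had 226, 199 and 261 CPM at 7 dpa, against 235, 399.6 and 282 CPM uninjured (−0.42, adjusted p = 0.161). HUWE1 had a value of 0.17 and Traf4 of −3.95 (adjusted p = 0.0791, few counts). Of the 8 Ca2+ transport genes tested 2 fell and none rose, against 2.30% and 3.92% of all genes, with a median of −0.55. They were Ca-alpha1T, given above, and the sodium-calcium exchanger gene Nckx30C, which had 182, 167 and 181 CPM at 7 dpa, against 249, 337 and 433 CPM uninjured (−0.94, adjusted p = 9.06e-04). The call of Ca-alpha1T was lost without 7 dpa replicate 2 or uninjured replicate 1 (adjusted p = 0.0934 to 0.0947). stj, an auxiliary calcium channel subunit, had 71.0, 43.6 and 39.4 CPM at 7 dpa, against 159.6, 104 and 51.4 CPM uninjured, just outside the threshold (−1.06, adjusted p = 0.0537), and it was called, among other alternatives, without 7 dpa replicate 1 or uninjured replicate 3 (adjusted p = 0.00608 to 0.0324). The summed level of the class was 852 to 929 CPM at 7 dpa, against 1258 to 1306 CPM uninjured. For the presynaptic calcium channel gene cac the value was −0.46 and for the exchanger gene Calx −0.65, neither called. In background pulldowns 1 of the 8 Ca2+ transport genes fell and none rose, where 0.943% of all genes fell, with a median of −0.36. The difference, wild type minus background, was called for none of the 8 and had a median of −0.07. In the wild type input 5 of 9 fell, where 10.7% of all genes did.

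Some of the non-coding RNAs that were called were among the most abundant RNAs of the pulldown. RNaseMRP:RNA, the RNA of a ribozyme that trims precursor rRNA, had 28445, 29262 and 26245 CPM at 7 dpa, against 10309.6, 11033 and 10022 CPM uninjured (log2 fold change 1.42, SE 0.07, edgeR adjusted p = 3.26e-21). lncRNA:noe, a long non-coding RNA, had 20540.3, 19322 and 19800.5 CPM at 7 dpa, against 12025, 12455 and 12475 CPM uninjured (0.69, adjusted p = 7.78e-11). Both were high in every library, with groups apart. The largest fall of all genes with at least 50 counts was that of 28SrRNA-Psi:CR40741, a 28S rRNA pseudogene. It had 132, 166 and 92.2 CPM at 7 dpa, against 6165, 5604 and 5258 CPM uninjured (−5.45, SE 0.30, adjusted p = 3.21e-08). All uninjured libraries were high and all 7 dpa libraries were far below them. Copies of rRNA are near-identical, so this value is uncertain. The other of the 11 rRNA genes tested that fell was 28SrRNA-Psi:CR41609 (−0.70), where 2.30% of all genes fell. Of 104 snoRNAs and scaRNAs 1 rose, where 3.92% of all genes tested did. It was scaRNA:PsiU1-6 (0.83), whose call was lost without 7 dpa replicates 2 or 3 or uninjured replicates 1 or 2 (adjusted p = 0.0568 to 0.132).

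RNAs that mark males and females differed between the groups. roX1 and roX2 are long non-coding RNAs of male dosage compensation, and yolk proteins are made by female fat body. lncRNA:roX2 had 71.0, 81.1 and 93.3 CPM at 7 dpa, against 230.2, 328 and 280.3 CPM uninjured (log2 fold change −1.76, SE 0.25, edgeR adjusted p = 1.73e-06). lncRNA:roX1, which overlaps ec, had 416, 368 and 255 CPM at 7 dpa, against 696, 831 and 642 CPM uninjured (−1.07, adjusted p = 1.31e-06). Both were lower in every 7 dpa library. Yp2 had 11298, 11423 and 11926 CPM at 7 dpa, against 7502, 6314 and 6920.5 CPM uninjured (0.74, adjusted p = 2.20e-10). Yp3 had 13388, 13766 and 14035 CPM at 7 dpa, against 8898, 8433 and 8748 CPM uninjured (0.66, adjusted p = 5.70e-10), and Yp1, which overlaps asRNA:CR45601, was not called (0.14). In the wild type input lncRNA:roX2 and Yp2 had log2 fold changes of −1.63 and 1.44, also called. They move with every result given here, and their part in those results was not tested. Genes on the X chromosome were 16.3% of those that rose and 21.1% of those that fell, where 17.8% of all genes tested lie there.

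The wild type input shows how far the pulldown followed the whole head. The input is deeper and its spread smaller (biological coefficient of variation 0.198, against 0.460 in pulldowns), and in it 1863 genes rose and 1113 fell, 17.8% and 10.7% of the 10437 tested, or 28.5% in either direction. Of the 283 genes that rose in the pulldown, 201 were also called higher in the input and 2 lower. These 201 were 71.0% of the pulldown's list and 10.8% of the input's, and the 282 tested there centred on 1.36 in the input. Of the 166 that fell in the pulldown, 62 were called lower in the input and 9 higher, 37.3% of the pulldown's list and 5.57% of the input's, with a median of −0.47. Tsf1, AttC and Hml rose in the input too, with 2.80, 3.81 and 2.29. Hemocyte markers rose in the input in 7 of 8 genes, with a median of 2.47, and synaptic genes fell in 12 of 21, with a median of −0.66.

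The difference between the pulldown's and the input's change was tested in the 12 wild type libraries over 9402 genes. It was called for 2.08% of these, higher for 81 genes and lower for 115, 0.862% and 1.22% of those tested, with a median over all genes of 0.15 towards the pulldown, against which values should be read. Leaving out 1 library at a time moved the count between 70 genes (without input uninjured replicate 2) and 458 genes (without pulldown uninjured replicate 1, 273 higher and 185 lower). It was 70 to 76 without any 1 of the 6 inputs, and 395 and 423 without pulldown uninjured replicates 2 and 3, and higher calls outnumbered lower ones without pulldown 7 dpa replicates 1 or 2 or pulldown uninjured replicates 1 or 2. These runs also changed the filter. They tested 7727 to 7793 genes without an input and 10174 to 10210 without a pulldown, against 9402. The part of the filter in these counts was not tested. In coding genes alone that median was 0.03 and the share of higher calls was 25.9%, against 41.3% with all genes and 54.8% with DESeq2. Apart from the ribosomal proteins, lncRNA:noe rose in the pulldown and not in the input (0.01 in the input, difference 0.86, SE 0.12, edgeR adjusted p = 0.00112). Both nocte, known from clock resetting by temperature, and spen, a nuclear RNA-binding repressor, fell in the pulldown and rose in the input. nocte, which overlaps Neb-cGP and CG2889, fell in the pulldown, with 469, 453 and 597 CPM at 7 dpa, against 1057, 1299.9 and 800.1 CPM uninjured (−1.05), and rose in the input (0.91), a difference of −1.78 (adjusted p = 5.09e-04). spen (split ends) had 1548, 1241 and 1306 CPM at 7 dpa, against 2254, 2018 and 2249 CPM uninjured (−0.67), and rose in the input (0.80), a difference of −1.29 (adjusted p = 3.49e-04). The transcription factor gene E2f1 and the ankyrin repeat gene mask rose in the input (2.10 and 1.72) and were not called in the pulldown (0.10 and −0.13), with differences of −1.81 and −1.67. Col4a1 and vkg rose less in the pulldown than in the input, by −1.30 and −1.44.

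**Figure D4:**
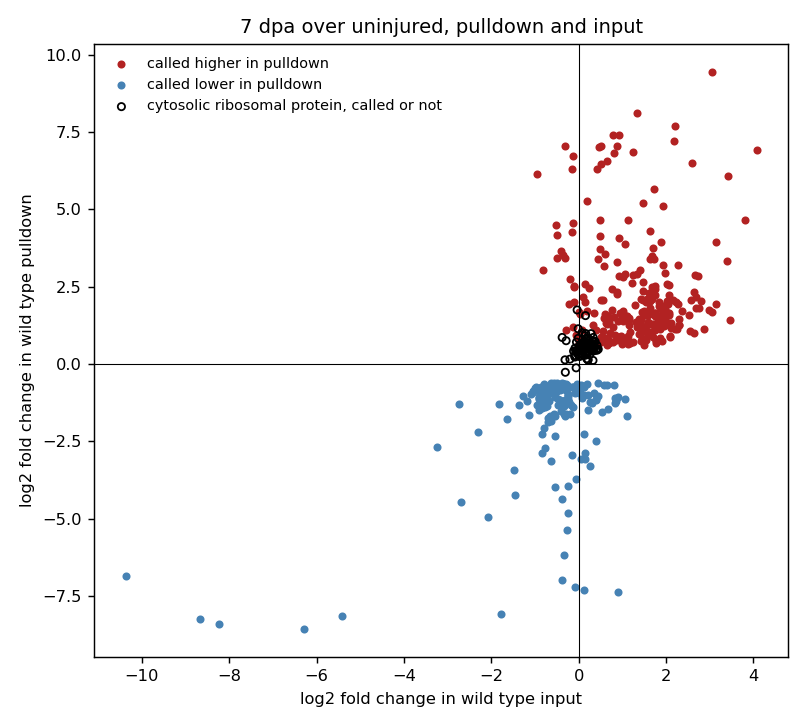
Log2 fold change, 7 dpa over uninjured, in the wild type input (x axis) and in the wild type pulldown (y axis). Red and blue points are genes called higher and lower in the pulldown, without the cytosolic ribosomal proteins. Open circles are all cytosolic ribosomal proteins tested in both, called or not. Most red points lie right of 0, and of all 283 genes called higher in the pulldown 201 were called higher in the input too. Most open circles lie above 0 in the pulldown and close to 0 in the input.

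Background pulldowns carry no tagged ribosome and give the change in RNA bound to the beads without it. In them 118 genes rose and 68 fell at 7 dpa, 1.64% and 0.943% of the 7213 tested, or 2.58% in either direction. Of the 283 genes that rose in wild type, 58 were called higher in background and 1 lower, 20.5% of the wild type list and 49.2% of the background list, with a median of 0.57. Of the 166 that fell in wild type, 15 were called lower in background and none higher, 9.04% of the wild type list and 22.1% of the background list, with a median of −0.30. The difference of the changes, wild type minus background, shares its wild type libraries with the comparison above. It was called for 83 genes, 1.15% of those tested, with 51 higher and 32 lower (0.707% and 0.444%), and for 156 genes with DESeq2. Without background 7 dpa replicate 1 only 21 of these differences were called lower, and without background uninjured replicate 2 only 72 genes rose in background. For all other genes the test of the difference did not pass, which does not show that the changes were alike.

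The gene with the smallest p of that difference among the ones that rose was lncRNA:noe, which rose in wild type and fell in background (−0.86, difference 1.55, SE 0.09, edgeR adjusted p = 1.13e-17). RNaseMRP:RNA had 20186 ± 1693 CPM at 7 dpa and 17938 ± 423 CPM uninjured in background (SD, n = 3 each), and its difference was 1.25. AttC rose in background as well, to 276, 220.3 and 307 CPM at 7 dpa, against 109, 77.0 and 135 CPM uninjured. At 7 dpa wild type and background overlapped, and before injury wild type was lower than background, and the difference of the changes was 3.31 (adjusted p = 4.99e-07). 28SrRNA-Psi:CR40741 had 129 ± 47.4 CPM at 7 dpa and 131 ± 45.8 CPM uninjured in background, and 74.2 ± 15.1 and 746 ± 50.4 CPM in dnmnatOE (SD, n = 3 each). The uninjured wild type libraries, at 5676 ± 458 CPM, were thus the highest of the 18 pulldowns in this RNA.

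Tsf1 rose less in background (0.77, difference 1.26, SE 0.15, edgeR adjusted p = 1.56e-07), and Col4a1 and Yp2 were not called there (−0.35 and −0.03), with called differences of 1.42 and 0.77. Background lncRNA:roX2 had 166 ± 42.7 CPM at 7 dpa and 239 ± 29.6 CPM uninjured and was not called there (−0.52). lncRNA:roX1 was called lower in background, and the median of the 2 roX RNAs was −0.67. In dnmnatOE both roX RNAs were called lower, with a median of −1.99. The part of male and female markers in the differences from background was not tested. The hemocyte gene Hml had 80.7, 70.5 and 80.7 CPM at 7 dpa and 126, 142 and 129 CPM uninjured in background (−0.77, not called), a difference of 2.02 (adjusted p = 0.00462). HERC2 also differed (−0.19 in background, difference 0.92, adjusted p = 0.00511). Among the genes that fell, trp differed from background (0.08, difference −0.72, adjusted p = 4.93e-04), as did bves (−0.06, difference −1.54) and nocte (−0.08, difference −0.97). NimC1, Amy-d, nAChRbeta3, to and Nplp3 were called in the same direction in background as in wild type, with 2.99, 2.60, 2.47, −1.74 and −3.38.

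**Figure D5:**
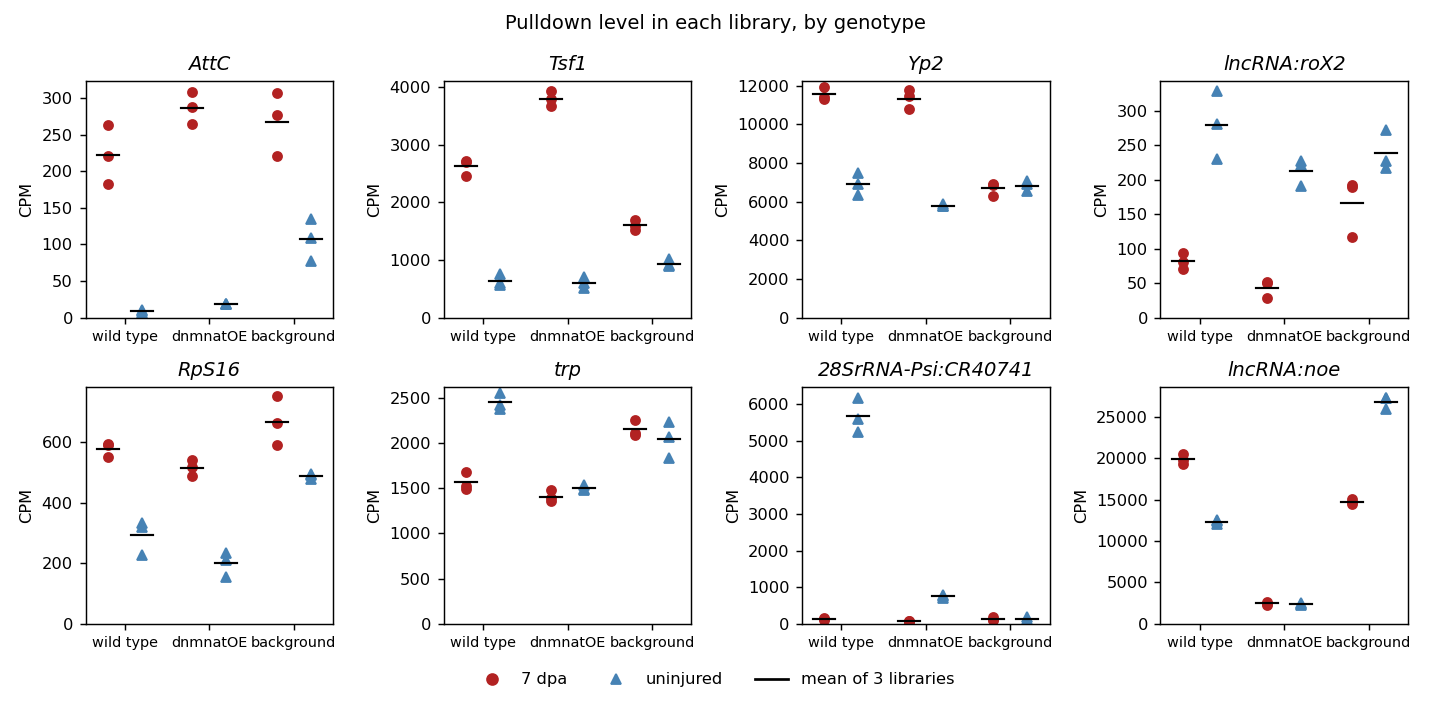
Pulldown level (CPM) of 8 genes in each library of wild type, dnmnatOE and background, with 7 dpa as red circles left of uninjured as blue triangles and the mean of 3 libraries as a line. AttC at 7 dpa is at 222 ± 40.6 CPM in wild type and 268 ± 44.1 CPM in background (SD, n = 3 each), and 28SrRNA-Psi:CR40741 is highest in the uninjured wild type libraries, at 5676 ± 458 CPM.

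In dnmnatOE, whose severed axons persist because of the added dNmnat, 531 genes rose and 324 fell in the pulldown at 7 dpa, 7.36% and 4.49% of those tested, or 11.9% in either direction. Of the 283 genes that rose in wild type, 168 were called higher in dnmnatOE and 2 lower, 59.4% of the wild type list and 31.6% of the dnmnatOE list, with a median of 1.27. Of the 166 that fell in wild type, 54 were called lower in dnmnatOE and none higher, 32.5% of the wild type list and 16.7% of the dnmnatOE list, with a median of −0.48. The difference of the changes, wild type minus dnmnatOE, again shares the wild type libraries and was called for 3.05% of the genes tested, higher for 92 and lower for 128, 1.28% and 1.77%. Without dnmnatOE 7 dpa replicate 3 or dnmnatOE uninjured replicate 1 it was called for 138 and 144 genes. Fewer lower calls, 70 to 81, came without any 1 of dnmnatOE 7 dpa replicates 1 and 3, dnmnatOE uninjured replicates 2 and 3 and wild type 7 dpa replicate 3, and fewer higher calls, 53, without dnmnatOE uninjured replicate 1. Tsf1 rose in both genotypes, by less in wild type (2.66 in dnmnatOE, difference −0.62, SE 0.15, edgeR adjusted p = 0.0108). Myo31DF rose in wild type and was not called in dnmnatOE (0.22, difference 2.68, adjusted p = 0.00257). Ribosomal proteins had a median of 1.10 in dnmnatOE, with 70 of 81 called higher, and 22 of the 81 were called lower in the difference. RpL32, for example, rose less in wild type (difference −1.40, adjusted p = 2.22e-04). The call of RpL32 in wild type itself was lost without 7 dpa replicates 2 or 3 or uninjured replicates 1 or 2 (adjusted p = 0.0565 to 0.0902). HERC2 rose less in wild type as well (1.68 in dnmnatOE, difference −0.96), and hiw differed (0.46 in dnmnatOE, difference −0.88, adjusted p = 0.0319). The active zone gene brp, which fell in wild type, had 0.10 in dnmnatOE, and its difference was −0.84 (adjusted p = 0.00988).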

How the data were processed

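The authors deposited raw counts per gene, 1 table for each library, made from paired-end reads with Trimmomatic, HISAT2, SAMtools and HTSeq on a FlyBase Release 6 genome. Tool versions, and the mode and strand setting of the counting, are not given in the sources used here. Inputs were poly-A selected and pulldowns were not, and no rRNA was depleted. The 5 summary rows of each table were left out. Counts of the 18 pulldowns entered a single fit with 1 coefficient per group in edgeR 4.0.16 (R 4.3.3, limma 3.58.1; filterByExpr, TMM, robust quasi-likelihood test, Benjamini-Hochberg adjustment), and inputs were fitted likewise. Differences between pulldown and input came from the 12 wild type libraries. CPM used TMM-normalized library sizes. Positions, exonic lengths and overlaps came from an Ensembl annotation of the same assembly, where 17559 of 17611 genes had an entry, and 147 of the 449 called genes shared exonic bases with another gene. Alternatives were DESeq2 1.42.0, other filters, size factors, gene sets and a replicate block, and leaving out each library. The fits were tested on simulated data. In the wild type pulldown 10.9% of simulated 2-fold changes and 50.8% of 4-fold changes were called. Of 4-fold changes, 22.1% were called in pulldown minus input and 30.5% in wild type minus background. A gene that was not called may therefore still have changed. Figures were drawn with matplotlib 3.10.9 in Python 3.11.15.

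The members and gene lists were chosen with earlier results of these data known. Genes were named where they were among the 12 largest changes in each direction that averaged at least 50 counts and had groups apart, were called members of a list or members of the study's classes, were RpL10Ab, Nmnat, Orco, drpr, NimC1, a roX RNA or a yolk protein, or had the 5 smallest adjusted p in each direction in the difference from background or from the input. Others are marked where they appear, except crq, eater, dome, hop, Stat92E, repo and ninaE. These are list members that were not called and are outside this rule. A result for 1 named gene is not reported here. With 3 libraries against 3, an exact permutation test of a single gene cannot go below 0.1, so no such test is given.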

Additional observations from a re-analysis of the deposited data

Results flagged for a closer look

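The change at 7 dpa differed between wild type and background pulldowns for 83 genes and between wild type and dnmnatOE pulldowns for 220 genes, by a test of the difference itself in edgeR. The values that follow are the wild type log2 fold change minus that of the other genotype, for named genes whose difference passed an adjusted p of 0.05 and a size of 0.6.

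Against background, the difference was positive for AttC (3.31), FBXO11 (2.44), Hml (2.02), lncRNA:noe (1.55), Col4a1 (1.42), Tsf1 (1.26), RNaseMRP:RNA (1.25), Cyp6g1 (1.17), HERC2 (0.92) and Yp2 (0.77), which rose in wild type. It was also positive for Msp300 (1.31), a giant muscle and nuclear envelope protein, and dpy (1.19), a cuticle-anchoring protein, which had 0.36 and 0.30 in wild type and −0.96 and −0.89 in background. It was negative for 28SrRNA-Psi:CR40741 (−5.47), bves (−1.54), Mbs (−1.44), a myosin phosphatase subunit, hep (−1.22), nocte (−0.97) and trp (−0.72), which fell in wild type. It was negative as well for CHKov1 (−1.93), kay (−1.31), the fly Fos, and Zasp66 (−1.31), a Z-disc protein, which had −0.49, −0.34 and −0.20 in wild type and 1.44, 0.97 and 1.11 in background.

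Against dnmnatOE, the difference was positive for Myo31DF (2.68), Nplp3 (2.64), CHKov1 (1.90), Pu (1.79), Zasp66 (1.54), kay (1.33), dpy (1.00), Gs2 (0.91), Mbs (0.75) and lncRNA:noe (0.64). Of these, Pu and Nplp3 fell in wild type, with −1.35 and −2.70, and had −3.13 and −5.34 in dnmnatOE. It was negative for Cyp4g1 (−5.76), Amy-d (−2.74), nAChRbeta3 (−2.33), 28SrRNA-Psi:CR40741 (−2.11), Cyp9b2 (−1.72), corn (−1.49), Lsp1beta (−1.41), RpL32 (−1.40), NaCP60E (−1.35), Rbp (−1.13), Ca-alpha1T (−1.09), eEF1alpha1 (−0.98), HERC2 (−0.96), nocte (−0.93), Apoltp (−0.90), hiw (−0.88), brp (−0.84), RpL13A (−0.82), RpL24 (−0.80), RpL26 (−0.77), RpL10Ab (−0.72), trpl (−0.71), RpS7 (−0.69), Yp3 (−0.67) and Tsf1 (−0.62). Of these, Cyp4g1, Amy-d, eEF1alpha1 and RpL10Ab had 7.70, 5.07, 1.47 and 1.03 in dnmnatOE. The call of Ca-alpha1T in wild type was lost without 7 dpa replicate 2 or uninjured replicate 1 (adjusted p = 0.0934 to 0.0947).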

How the results depend on the processing

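No named gene that was called reversed its direction in the wild type pulldown under any alternative run, while 8 genes that were not called changed sign without a single library (Bruce, CG6923, Ca-alpha1D, Mul1, RyR, cac, dmpd and pic). With the 6 wild type pulldowns fitted alone, 165 genes were called (111 higher, 54 lower), and of 124 named genes, called or not, 41 lost their call. DESeq2 called 638 genes (375 higher, 263 lower), 156 in wild type minus background (86 higher, 70 lower) and 1027 in pulldown minus input (563 higher, 464 lower). Other size factors, filters and gene sets kept the wild type pulldown within 1.5 times its counts. Replicate numbers did not pair the libraries: deviations of libraries with the same number correlated at −0.01, 0.00 and 0.02 over 2789 genes. With the replicate block 433 genes were called in the wild type pulldown (280 higher, 153 lower) and 118 in pulldown minus input (47 higher, 71 lower).

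Leaving out 1 library at a time gave 329 to 486 genes in the wild type pulldown (221 to 321 higher, 106 to 186 lower, the fewest lower without 7 dpa replicate 3), 128 to 156 in background (72 to 97 higher, 52 to 59 lower), 670 to 712 in dnmnatOE (401 to 433 higher, 263 to 285 lower) and 2811 to 2894 in the input (1794 to 1832 higher, 1008 to 1078 lower). For differences it gave 70 to 458 in pulldown minus input (31 to 273 higher, 38 to 225 lower), 59 to 118 in wild type minus background (37 to 75 higher, 21 to 43 lower) and 138 to 263 in wild type minus dnmnatOE (53 to 124 higher, 70 to 152 lower). Each of these runs also repeated the filter, which changed the number of genes tested. Without any 1 of the 6 wild type pulldowns, 12 to 22 of 135 named genes lost their call. The 135 and 124 named genes include some that were not called to begin with and had no call to lose.

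Depth limits the low genes. A count of 3 was worth up to 5.32 CPM in the uninjured wild type pulldowns, so that for odorant receptors, antimicrobial peptides and other low genes a difference was often not detectable at this depth.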
